A study of Caenorhabditis elegans with 6 samples.

Results

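Genes on the X chromosome of the nematode Caenorhabditis elegans that carry only a sequence name, the clone name and number assigned when the genome was sequenced (such as F34H10.3), numbered 1305 of the 20392 genes in the deposited count table and of the 2714 genes placed on X. A gene was taken as a member when neither Ensembl nor RefSeq gave it a gene-class name, the lettered symbol that curators assign to a gene of studied function or family. The chromosome was cut into 3 segments of equal length, and by gene midpoint 440 members lay in the left, 451 in the middle and 414 in the right segment. Of the members, 1233 were annotated as protein coding, 67 as pseudogenes and 5 as non-coding RNAs. The table also held 1409 X-linked genes with a gene-class name and 7165 sequence-name genes on the autosomes, which serve as background.

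Total RNA was sequenced from whole first-stage (L1) larvae in 3 libraries of strain XA6227, genotype mrg-1 -/-, and 3 libraries of the wild-type strain N2. The mutant larvae were offspring of homozygous mutant F1 mothers, 2000 to 4000 per replicate, which were picked by hand as non-rollers from a strain kept over a balancer. The wild-type mothers, similar in number, were washed from plates, so that genotype and way of collection cannot be told apart. All embryos were isolated with hypochlorite, hatched over 18 h in M9 buffer and refed for 2 h and 30 min, and libraries were made from 2 ng of RNA. The labels number the replicates without saying that they came from separate cultures, so the p-values measure only the spread between these libraries, which may be technical.

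MRG-1 is a chromodomain protein of the MRG15 family, whose relatives in other species bind histone H3 methylated at lysine 36 and work with histone acetylation complexes. In C. elegans the X chromosome is set apart from the autosomes in its regulation: in hermaphrodites the dosage compensation complex lowers expression from both X chromosomes in somatic cells, and in the germline X-linked genes are kept largely silent. Earlier work in worms found maternal MRG-1 to be needed for the survival of primordial germ cells and for keeping X-linked genes silent in them. No role is given here to the members themselves, since the annotation used names none.

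Library totals were 20917771 to 24123189 counts in the mutant and 19238422 to 39063186 in the wild type, of which genes outside the mitochondrial genome took 19156842 to 21124151 and 17191073 to 22267493. Mitochondrial genes held 8.42% to 12.4% of the mutant and 10.6% to 45.6% of the wild-type counts. The mrg-1 transcript, the check of the labels, stood at 2.11, 5.61 and 5.15 CPM (counts scaled to library size) in the mutant libraries and at 30.2, 15.9 and 18.8 CPM in the wild type. Of the marker lists, the summed level of 4 muscle genes was 8689 to 10306 CPM in the mutant and 4053 to 7370 CPM in the wild type, and that of 6 sperm genes was 4.47 to 14.9 CPM in the mutant and 0.288 to 1.06 CPM in the wild type. The sperm markers msp-3 and msp-10 were at 0 in every library. Of the 6 sperm genes only 2 were tested, spe-9 and fer-1, and neither was called (edgeR adjusted p = 0.195 and 0.0769). The gene fer-1 was uneven, with 12.5, 1.98 and 2.89 CPM in mutant libraries 1, 2 and 3. The ranges of the intestine (858 to 1269 CPM in the mutant and 298 to 1374 CPM in the wild type), pharynx (2479 to 3139 CPM and 907 to 3009 CPM, in the same order), neuron (362 to 589 CPM and 363 to 387 CPM), germline (29.8 to 45.4 CPM and 28.6 to 76.6 CPM) and oocyte and adult (6.01 to 11.5 CPM and 4.96 to 6.71 CPM) lists overlapped between the genotypes, as did that of the male genes her-1 and mab-3 (0.468 to 2.85 CPM and 0.0733 to 1.73 CPM). Of the epidermal genes, which summed to 4.66 to 6.27 CPM in the mutant and 7.21 to 9.72 CPM in the wild type, rol-6 had 2.69, 1.57 and 2.59 CPM in the mutant libraries and no count in the wild type (edgeR adjusted p = 0.0284). Since the mutant mothers were selected as non-rollers against a balancer, rol-6, in which mutations can give rolling worms, is no plain epidermal marker here, and a part of the balancer in its counts was not tested. Of the germline genes, the eggshell gene cpg-2 fell, with 0.195, 0 and 0.451 CPM in the mutant and 7.06, 3.78 and 14.1 CPM in the wild type (edgeR adjusted p = 0.0373). The part of these differences in the results below was not tested.

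Sequence-name genes of the X chromosome lay higher in the mutant as a group, by a small amount that the X-linked genes with gene-class names shared. Of the 1305 members, 817 had enough counts to be tested, and their median log2 fold change was 0.26, against -0.04 for 4042 tested sequence-name genes of the autosomes and -0.03 for all 13460 tested genes. The 1200 tested X-linked gene-class genes had a median of 0.24. Most of the tested members, 515 of 817 or 63%, had a positive fold change, against 48.5% of autosomal sequence-name genes and 48.7% of all tested genes. In bulk larvae, a change in the number of cells of a type and a change in RNA per cell cannot be told apart.

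**Figure D1:**
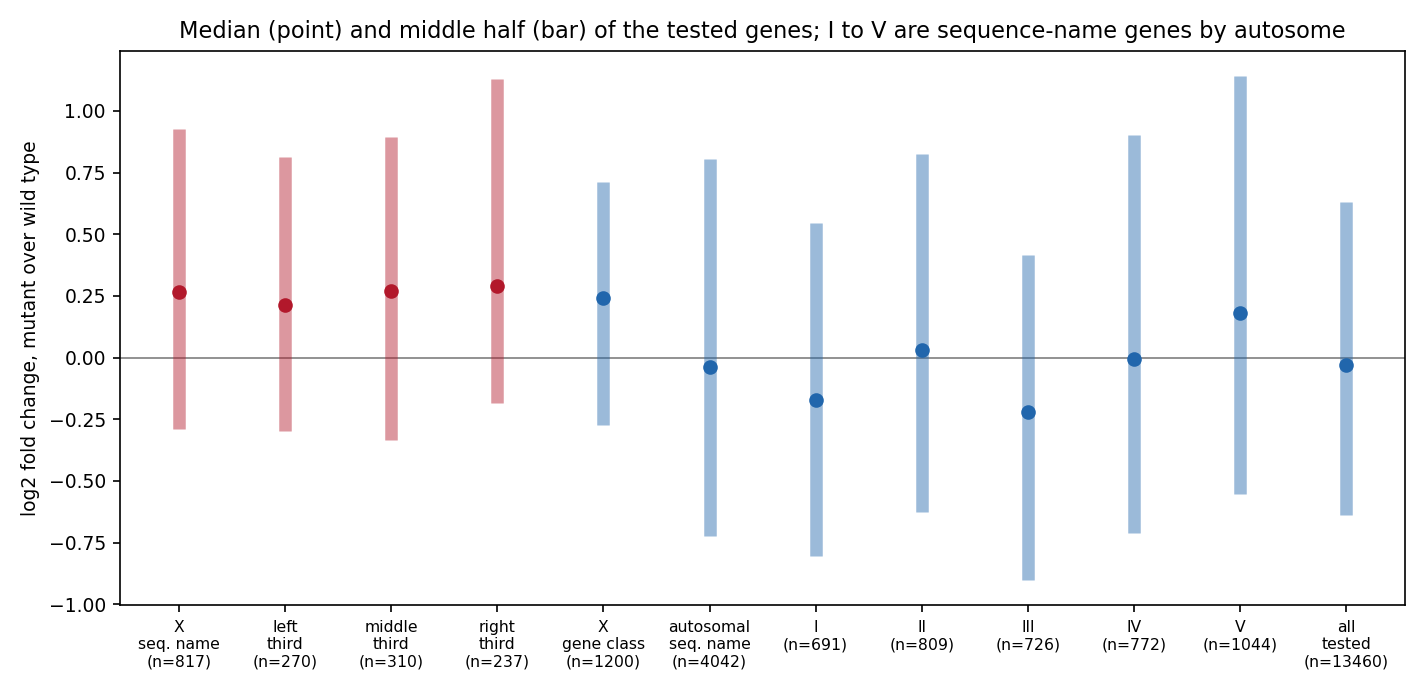
Median (point) and range between the quartiles (bar) of the log2 fold change, mutant over wild type, for the tested X-linked sequence-name genes and their segments (red), and for the other gene sets (blue); n is the number of genes tested. The members and their 3 segments have medians of 0.21 to 0.29, and the autosomes range from -0.22 for chromosome III to 0.18 for chromosome V.

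The shift was seen in each library. On the scale of log2 CPM minus each gene's mean over the 6 libraries, the median over tested members was 0.26, 0.24 and 0.18 in mutant libraries 1, 2 and 3 and -0.16, -0.07 and -0.16 in wild-type libraries 1, 2 and 3. Every mutant library therefore lay above every wild-type library. Autosomal sequence-name genes gave 0.09, 0.09 and 0.08 in the mutant libraries and -0.06, 0.00 and 0.05 in the wild-type libraries, closer together but also without overlap. Taken as the member median minus the autosomal sequence-name median within each library, the values were 0.18, 0.14 and 0.10 in the mutant and -0.10, -0.08 and -0.21 in the wild type, a mean of 0.14 ± 0.04 and -0.13 ± 0.07 (SD, n = 3 each). The members and the X-linked gene-class genes differed in wild-type library 1: there the gene-class genes stood at 0.00 and the members at -0.16, whereas in the other 5 libraries the members lay 0.04 to 0.08 above the gene-class genes.

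A shift of this size was not limited to X. Sequence-name genes of chromosome V had a median log2 fold change of 0.18 over 1044 tested genes, and their median minus that of the other autosomes was 0.16, 0.16 and 0.17 in the mutant libraries and -0.21, -0.18 and -0.07 in the wild-type libraries. The medians for sequence-name genes of chromosomes I, II, III and IV were -0.17, 0.03, -0.22 and -0.005. X and V thus stood above the other chromosomes, with no test of the difference between them.

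**Figure D2:**
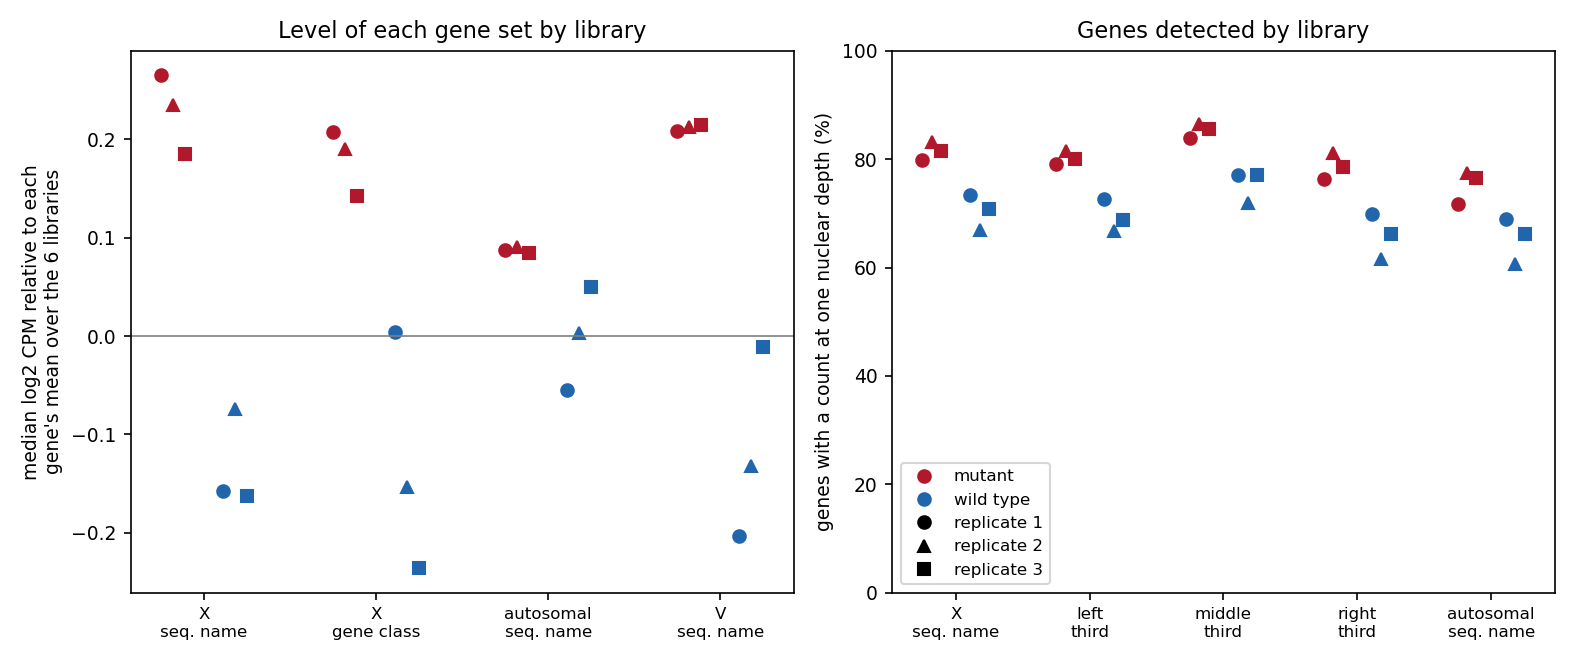
Left, the median over tested genes of log2 CPM relative to each gene's mean over the 6 libraries, for 4 gene sets; right, the percentage of listed genes with at least 1 count after thinning all libraries to 17191073 nuclear counts. Each symbol is 1 library, mutant in red to the left of wild type in blue; no mutant library overlaps a wild-type library in any set shown.

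Summed counts gave the same order. Members held 3.25%, 3.21% and 3.11% of the nuclear counts in the mutant libraries and 2.58%, 2.80% and 2.82% in the wild-type libraries, 3.19% ± 0.07 and 2.73% ± 0.13 (SD, n = 3 each). Without the 10 members of highest count the shares were 2.31%, 2.30% and 2.30% in the mutant and 1.78%, 2.09% and 2.18% in the wild type, and the genotypes still did not overlap. X-linked gene-class genes held 13.2% ± 0.195 in the mutant and 11.6% ± 0.356 in the wild type (SD, n = 3 each). The share of autosomal sequence-name genes, 12.6% to 13.6% in the mutant and 11.6% to 14.5% in the wild type, did overlap. These are shares of a whole, so a higher share for X entails a lower one elsewhere.

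Members were weakly expressed for X-linked genes, but not for sequence-name genes. Per kilobase of the deposited gene length, the median member had 1.97 CPM in the mutant and 1.38 CPM in the wild type. The median X-linked gene-class gene had 7.73 CPM and 6.93 CPM in the same order, and the median autosomal sequence-name gene 1.14 CPM and 0.846 CPM. Below a mean of 1 CPM lay 585 members, or 44.8%, against 50.4% of autosomal sequence-name genes, and only 50 members reached 100 CPM. Of the 585, 102 passed the expression filter, and since a gene of this level can pass through the group in which it is high, their median of 0.87 is no measure of the others. Between 1 and 10 CPM, where 366 of 371 members were tested, the median log2 fold change was 0.30, against -0.02 for autosomal sequence-name genes of that level. Between 10 and 100 CPM it was 0.14 over 299 members, against -0.17, and from 100 CPM it was 0.18 over 50 members, against -0.05. At matched level the members therefore lay 0.32, 0.31 and 0.23 above the autosomal sequence-name genes, and 0.06, 0.04 and 0.05 below the X-linked gene-class genes.

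**Figure D3:**
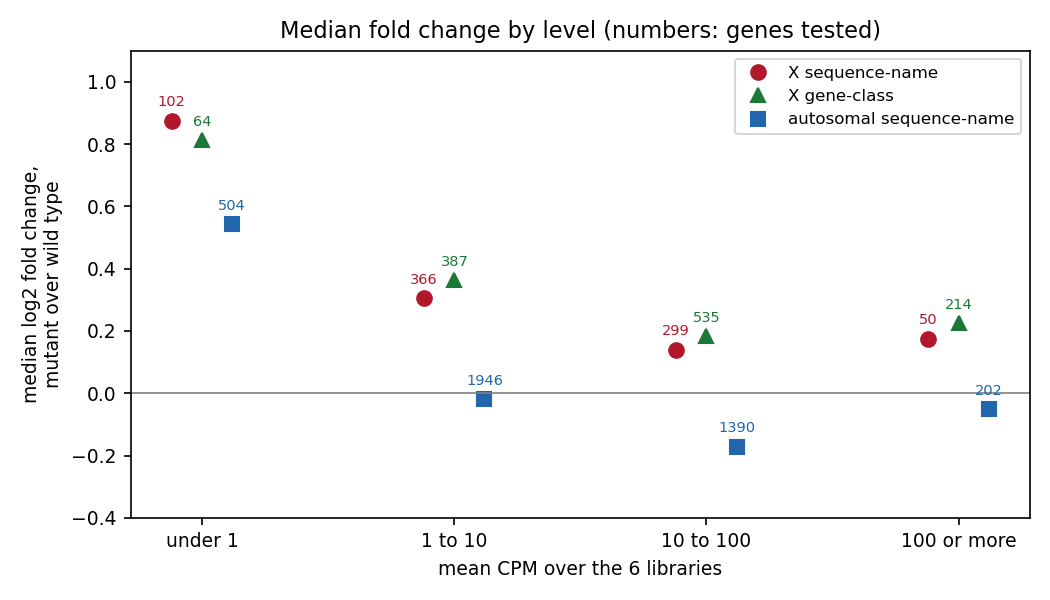
Median log2 fold change, mutant over wild type, of X-linked sequence-name genes (red circles), X-linked gene-class genes (green triangles) and autosomal sequence-name genes (blue squares) by mean CPM over the 6 libraries, with the number of tested genes at each point. Both X-linked sets lie above the autosomal set at every level, and the medians under 1 CPM cover only genes that passed the expression filter.

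The shift ran along the whole chromosome. The median log2 fold change was 0.21 over 270 tested members of the left segment, 0.27 over 310 of the middle segment and 0.29 over 237 of the right segment. Within single libraries the right segment minus the left segment gave -0.01, 0.17 and 0.03 in the mutant and -0.04, 0.09 and -0.17 in the wild type, so the genotypes overlapped. The middle segment minus the mean of the outer segments gave -0.03, -0.08 and 0.03 in the mutant and -0.10, -0.10 and 0.10 in the wild type, again with overlap. In 12 equal stretches of X the member median was positive in each, from 0.09 in the tenth from the left to 0.50 in the third stretch, over 47 to 87 tested members a stretch. X-linked gene-class genes had segments of 0.20, 0.25 and 0.25 from left to right, and their 12 stretches ran from 0.07 to 0.47.

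**Figure D4:**
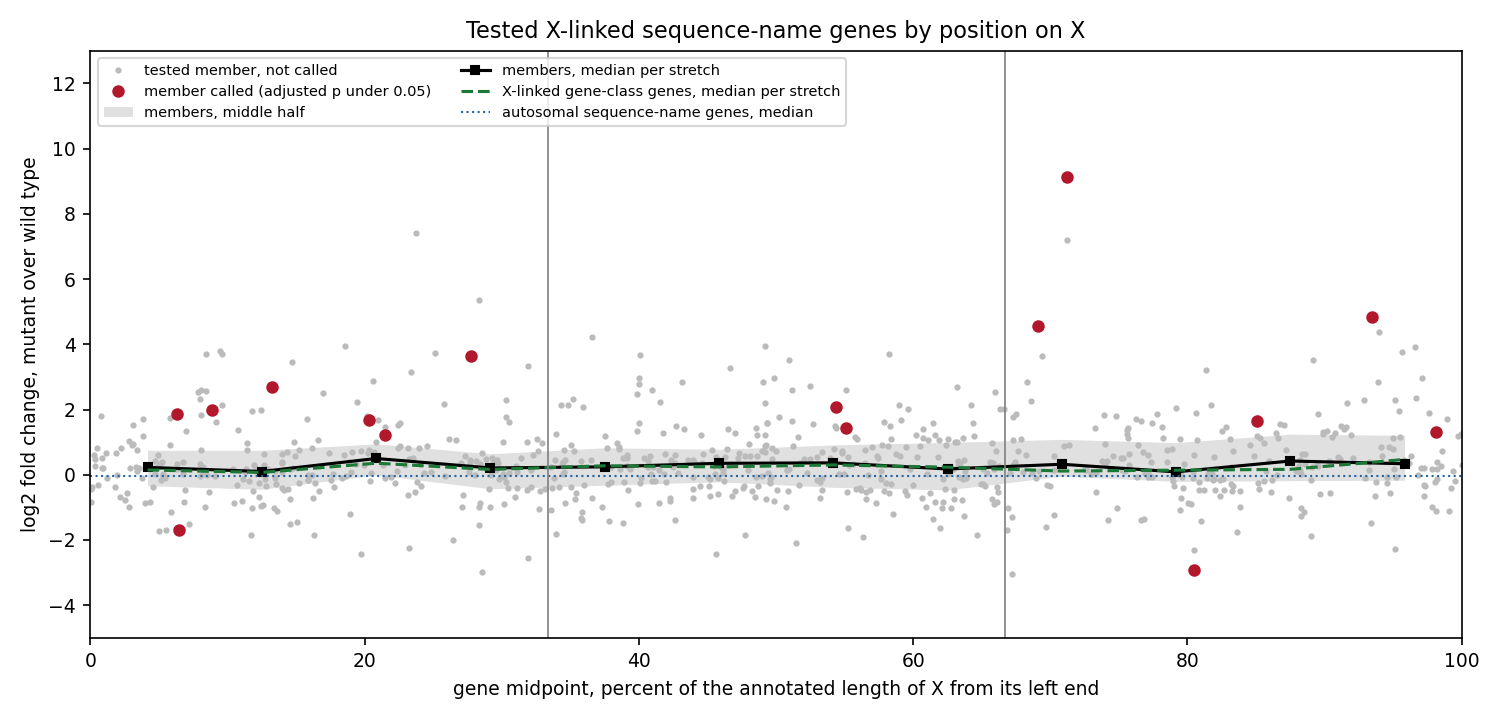
Log2 fold change, mutant over wild type, of the 817 tested members against the gene midpoint in percent of the annotated length of X; vertical lines separate the segments. The median per stretch (black squares) stays between 0.09 and 0.50, above the autosomal sequence-name median of -0.04 (dotted), while called members (red) occur at 7 places in the left, 2 in the middle and 6 in the right segment.

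The groups of libraries separated more often upward than downward. In 146 of the 817 tested members, or 17.9%, every mutant library lay above every wild-type library, against 14.4% of all tested genes. In 31 members, or 3.79%, every mutant library lay below, against 12% of all tested genes. Among the 817 are 21 that passed the expression filter through the mutant libraries alone, and 0 through the wild-type libraries alone. For those 21, passing the filter already required an upward difference, so they are no support for the upward share. In the left, middle and right segments, 43, 60 and 43 members lay above and 12, 9 and 10 below. Autosomal sequence-name genes had 15.5% above and 10.7% below, and X-linked gene-class genes 18.9% and 6.17%.

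Gene by gene, 13 members rose and 2 fell in the mutant (edgeR quasi-likelihood test, Benjamini-Hochberg adjusted p under 0.05 over 13460 genes). As a share of those tested, 1.59% of the members rose, against 1.75% of all tested genes, and 0.245% fell, against 0.847%; in either direction 2.6% of all tested genes were called. At an unadjusted p under 0.05, 89 members, 10.9%, were higher and 24, 2.94%, lower, against 9.29% and 10.2% of all tested genes. Of the 13, 6 lay in the left, 2 in the middle and 5 in the right segment, and 1 that fell lay in each outer segment. All 15 are annotated as protein coding. In all 15 the mutant and wild-type libraries did not overlap, as in 26.4% of all tested genes. The 15 were picked by their p on these same libraries, so this adds no support to the calls. The median SD of log2 CPM of a tested member was 0.46 among mutant and 0.84 among wild-type libraries, near the 0.49 and 0.85 of autosomal sequence-name genes. Of the tested members, 21 passed the expression filter through the mutant libraries alone and 0 through the wild-type libraries alone. Among the 13 that rose these were R09A8.1 and K08B5.1, for which passing the filter already required a difference, and the other 11 had at least 1 wild-type library over its limit.

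**Figure D5:**
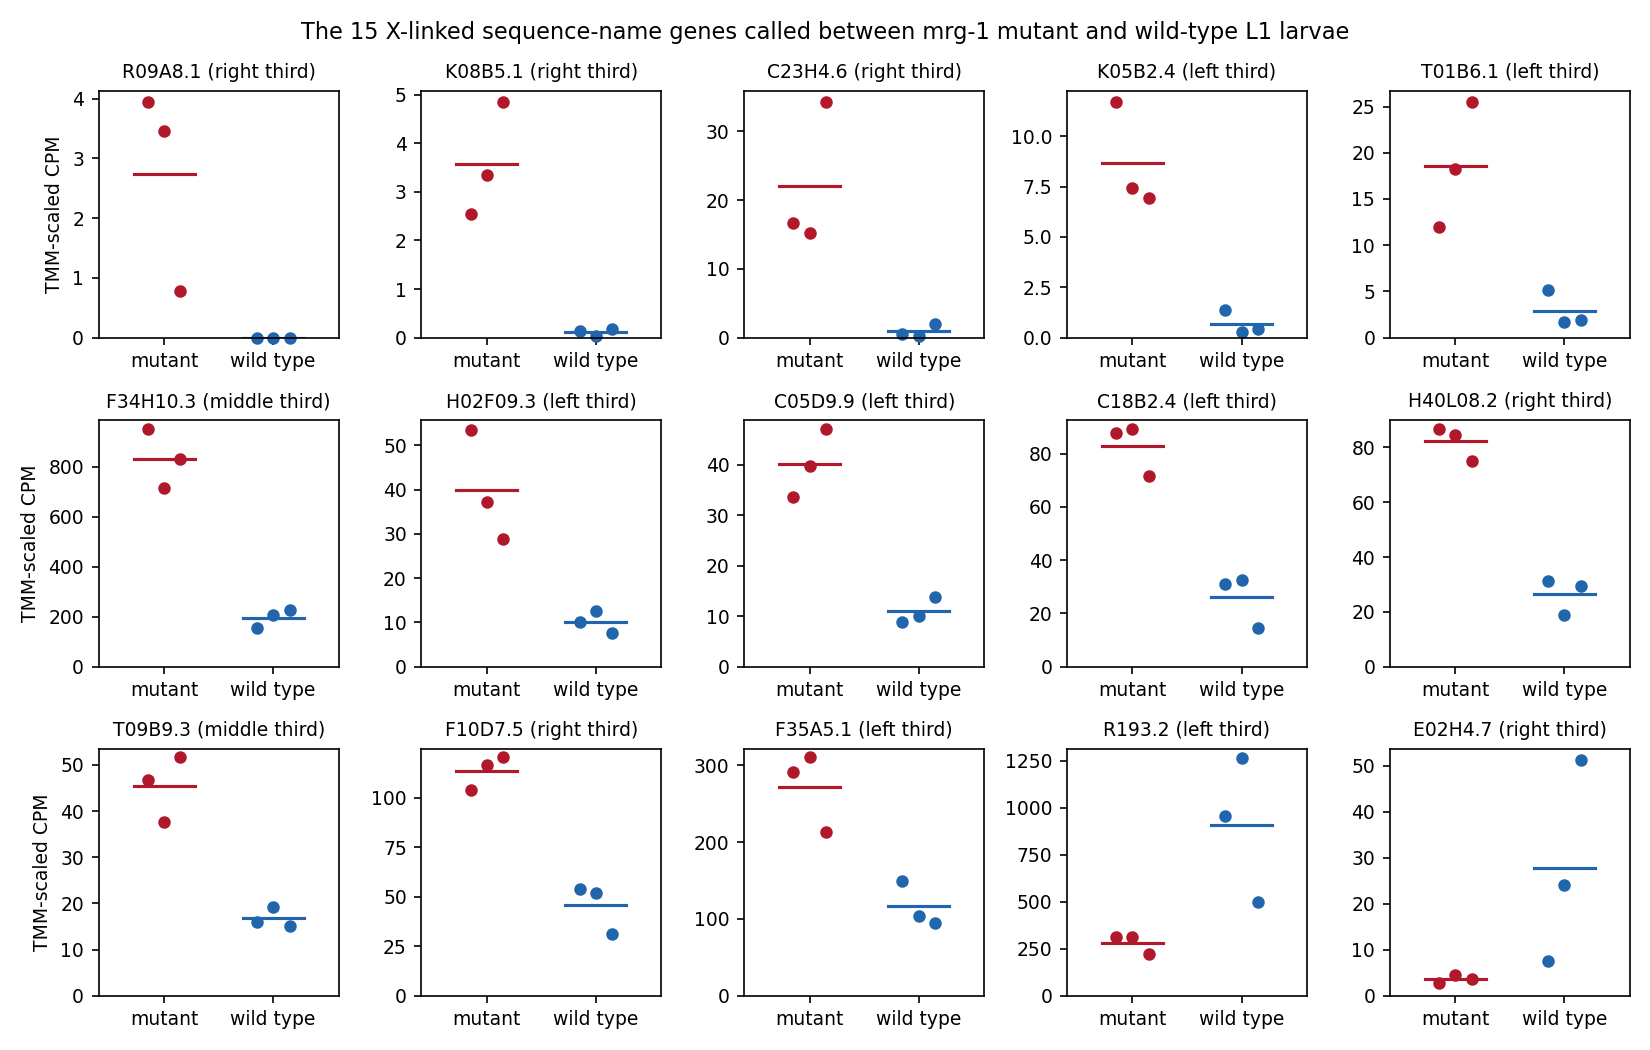
TMM-scaled CPM of the 15 called members, each point 1 library and each bar the mean of 3, mutant (red) left of wild type (blue); every panel has its own linear axis from 0. In 13 panels all mutant points lie above the wild-type points, and in R193.2 and E02H4.7 all lie below.

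F34H10.3 had the smallest adjusted p of the members and was also among the most abundant. It lies on the minus strand of X from 9633284 to 9635025 in the middle segment (all positions are those of WBcel235). It measured 949, 713 and 832 CPM in the mutant, against 155, 208 and 226 CPM in the wild type, or 832 ± 118 and 196 ± 36.8 CPM (SD, n = 3 each). The rise was 4.24-fold, or 2.08 ± 0.27 (SE) on the log2 scale with an edgeR adjusted p = 0.00385, and it was called in each of the 14 alternative fits.

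In the left segment, the strongest rises were in genes of low wild-type level. K05B2.4 (4918988 to 4920992, minus strand) had 11.7, 7.42 and 6.91 CPM in the mutant and 1.39, 0.257 and 0.438 CPM in the wild type. This was a 12.5-fold rise (edgeR adjusted p = 0.0435), with the highest wild-type value in library 1; without that library the log2 fold change went from 3.65 to 4.63. T01B6.1 (2335684 to 2348643, plus strand) had 11.9, 18.3 and 25.5 CPM in the mutant and 5.14, 1.65 and 1.93 CPM in the wild type. It rose 6.40-fold (edgeR adjusted p = 0.0409), again with wild-type library 1 the highest of its group, and without it the log2 fold change was 3.37 in place of 2.68. T01B6.1 spans the neuropeptide-like genes nlp-22 and nlp-23 on the other strand, which had 9 and 46 counts over the mutant libraries and 6 and 2 over the wild-type libraries.

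The other 4 that rose in the left segment were expressed at 10 CPM or more in wild type on average. H02F09.3 (1568677 to 1573060, plus strand) stood at 53.5, 37.2 and 28.8 CPM in the mutant and 10.1, 12.7 and 7.56 CPM in the wild type, a 3.94-fold rise. C05D9.9 (1122421 to 1124246, minus strand) stood at 33.6, 39.7 and 47.1 CPM in the mutant and 8.94, 10.0 and 13.9 CPM in the wild type, a 3.66-fold rise. The lowest mutant library was 2.27 times the highest wild-type library in H02F09.3 and 2.42 times in C05D9.9. C18B2.4 (3604291 to 3605741, minus strand) stood at 87.9, 89.1 and 71.8 CPM in the mutant and 31.2, 32.6 and 14.6 CPM in the wild type, a 3.17-fold rise, with library 3 the lowest of both groups. F35A5.1 (3807466 to 3816429, plus strand) stood at 291, 311 and 214 CPM in the mutant and 150, 104 and 94.0 CPM in the wild type, a 2.34-fold rise and the narrowest relative gap between groups of these 4. Their edgeR adjusted p values were 0.0284 for C05D9.9, 0.0304 for H02F09.3, 0.0382 for C18B2.4 and 0.046 for F35A5.1.

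R193.2 (1132993 to 1148585, minus strand) fell and was the most abundant of the called members in wild type. It measured 313, 311 and 220 CPM in the mutant, against 957, 1263 and 501 CPM in the wild type, or 281 ± 53.3 and 907 ± 384 CPM (SD, n = 3 each). It was 3.23-fold lower in the mutant (-1.69 ± 0.34 (SE) on the log2 scale, with an edgeR adjusted p = 0.0282). The wild-type libraries spread widely, and the lowest of them was still above all 3 mutant libraries.

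In the right segment, R09A8.1 (12613751 to 12618388, plus strand) was without a single wild-type count. It had 101, 84 and 21 counts in mutant libraries 1, 2 and 3, at least 67.7-fold higher than the floor of 3 counts over the wild-type group (edgeR adjusted p = 0.0306). As it entered the test only through its mutant counts, its p is not independent of that entry. The next listed gene, R09A8.2, lies 1076 bases further on the same strand and is also a member. It had 16, 24 and 14 counts in the mutant libraries and none in the wild type, at least 17.8-fold higher, but did not pass the test (edgeR adjusted p = 0.0642). Mutant library 3 was the lowest for both genes.

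C23H4.6 (12235606 to 12240810, plus strand) had 16.7, 15.2 and 34.2 CPM in the mutant and 0.576, 0.257 and 1.93 CPM in the wild type. It rose 23.6-fold (4.56 ± 0.77 (SE) on the log2 scale, with an edgeR adjusted p = 0.0139), and library 3 was the highest of both groups. Leaving out the third wild-type library gave 5.76. K08B5.1 (16558434 to 16562575, plus strand) had 2.53, 3.34 and 4.84 CPM in the mutant and 0.144, 0.0367 and 0.183 CPM in the wild type. This 28.5-fold rise (edgeR adjusted p = 0.0416) rested on 65, 81 and 129 counts in the mutant and 3, 1 and 5 in the wild type.

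H40L08.2 and F10D7.5 rose in the right segment at a higher level. H40L08.2 (15076690 to 15077744, minus strand) had 86.8, 84.6 and 75.2 CPM in the mutant and 31.2, 18.8 and 29.5 CPM in the wild type, a 3.10-fold rise (edgeR adjusted p = 0.0274). F10D7.5 (17383125 to 17391615, minus strand) had 104, 116 and 120 CPM in the mutant and 53.9, 52.0 and 31.1 CPM in the wild type, a 2.49-fold rise (edgeR adjusted p = 0.0467). In both genes the mutant libraries were close together and the wild-type libraries were spread more widely relative to their mean. T09B9.3 (9759297 to 9761366, minus strand), the other member that rose in the middle segment, had 46.7, 37.7 and 51.7 CPM in the mutant and 15.9, 19.2 and 15.1 CPM in the wild type, a 2.70-fold rise (edgeR adjusted p = 0.0487). T09B9.3 was the closest of the called members to the threshold, and its adjusted p was 0.0511 with mitochondrial genes left out and 0.0657 with the replicate block.

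E02H4.7 (14256273 to 14257424, plus strand) fell in the right segment. It had 2.81, 4.58 and 3.57 CPM in the mutant and 7.64, 24.1 and 51.3 CPM in the wild type. It was 7.57-fold lower in the mutant (edgeR adjusted p = 0.0373), and the wild-type value rested much on library 3, without which the log2 fold change went from -2.92 to -2.10 and the call was lost. Its left neighbour E02H4.5, on the opposite strand, had 0.897, 1.15 and 1.92 CPM in the mutant and 1.83, 3.70 and 14.2 CPM in the wild type, also highest in wild-type library 3, and did not pass the test (edgeR adjusted p = 0.179).

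Most of these calls were lost without any 1 mutant library or without wild-type library 2. Of the 15, 1, 2 and 1 were still called without mutant library 1, 2 and 3, and 15, 2 and 9 without wild-type library 1, 2 and 3. Over all genes, 350 calls became 35, 67 and 44 without mutant library 1, 2 and 3. Without wild-type library 1, 2 and 3 they became 1043, 82 and 403, so the losses were not particular to the members. In every one of these fits F34H10.3 was called, and no called member changed direction in any alternative. Scaling to library totals moved the median log2 fold change of all tested genes from -0.03 to 0.27, and the authors' normalized values moved it to 0.35. Neither calls R193.2 or E02H4.7, and over all genes they called 11 and 34 lower, against 114 with TMM scaling. With library totals 7 of the 15 calls were kept, and C18B2.4, F10D7.5, F35A5.1, K05B2.4, T01B6.1 and T09B9.3 were also lost, with higher fold changes than before and adjusted p values of 0.051 to 0.0725. The fall of mrg-1 likewise had an adjusted p of 0.105 with library totals.

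The genes next to called members were set beside all tested genes. For the nearest listed gene on each side of the 15 called members, 30 in all, 23 were tested. In edgeR 0 were called, against 2.6% of all tested genes, so 0 of 23 is near that share. At an unadjusted edgeR p under 0.05 there were 6, and 4 were called in DESeq2. These are 26.1% and 17.4% of the tested neighbours, against 19.5% and 8.26% of all genes tested. The 4 were E02H4.5, R09A8.2, ifa-4 and slc-17.9. The transporter-family gene slc-17.9, 112 bases from T09B9.3 on the same strand, had 3.67, 2.93 and 8.83 CPM in the mutant and 0.817, 0.367 and 0.329 CPM in the wild type. The intermediate filament gene ifa-4, next to K05B2.4, had 77.1, 74.2 and 67.5 CPM in the mutant and 49.7, 18.5 and 31.2 CPM in the wild type. Beside the 13 members that rose, 14 of 20 tested neighbours, 70%, had a positive fold change, with a median of 0.60; the share over tested members was 63% and over X-linked gene-class genes 62.7%.

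Some of the counts cannot be given to 1 gene with certainty, since the strand setting of the counting is not given in the sources used here. Exons of 259 members overlap those of another annotated gene, and 4 of these were called: C18B2.4, H02F09.3, H40L08.2 and T09B9.3. The 200 tested members with an overlap had a median log2 fold change of 0.27 and the 617 without had one of 0.26. Members on the plus strand had 0.27 over 414 genes and those on the minus strand 0.25 over 403. By deposited length, members of 180 to 888 bases had a median of 0.18, those of 889 to 1550 bases 0.25 and those of 1557 to 15455 bases 0.32. The 793 tested protein-coding members had a median of 0.25. The pseudogenes, of which 21 of 67 were tested, had a median of 0.90, with a median SE of 0.89 per gene.

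More members were detected in the mutant. At a common nuclear depth of 17191073 counts, 1042, 1085 and 1063 members had at least 1 count in the mutant libraries and 957, 873 and 925 in the wild-type libraries, 81.5% ± 1.65 and 70.4% ± 3.25 of the 1305 (SD, n = 3 each). With a minimum of 10 counts, 834, 829 and 848 members were detected in the mutant and 741, 710 and 730 in the wild type. The percentage by segment was 80.2, 85.3 and 78.7 in the mutant from left to right and 69.5, 75.4 and 65.9 in the wild type. The background sets were also detected more often in the mutant: autosomal sequence-name genes were detected at 75.3% ± 3.03 in the mutant and 65.3% ± 4.23 in the wild type, and X-linked gene-class genes at 92.6% ± 1.09 and 86.9% ± 3.32 (SD, n = 3 each).

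Counts in 1 genotype alone were more often mutant counts. No library held a count for 92 members, or 7.05%, of which 43 lay in the left, 20 in the middle and 29 in the right segment. A further 142 members, 10.9%, had counts in the mutant and none in any wild-type library, and 22 members, 1.69%, had counts in the wild type and none in the mutant. Autosomal sequence-name genes gave 11.9% and 2.26% for the same classes, and X-linked gene-class genes 4.4% and 0.994%. Thinned to a common depth, the 2 classes of members held 143 and 22 genes. Of the 142, 26 had a count in all 3 mutant libraries, with 7 to 206 summed counts and a median of 18, and 4 of the 26 are pseudogenes. No member had counts in all 3 wild-type libraries and none in the mutant. The background sets leaned the same way. These 2 classes held 118 and 3 of the 7165 autosomal sequence-name genes, and 13 and 1 of the 1409 X-linked gene-class genes.

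Among the members without a wild-type count, those with the most mutant counts were uneven between mutant libraries. In the left segment these were R04A9.7 with 51, 21 and 1 counts, the pseudogene F20B6.1 with 28, 18 and 18, and F14H12.2 with 25, 0 and 31 in mutant libraries 1, 2 and 3. In the middle segment they were C10A4.7 with 72, 6 and 9 counts, T25B6.1 with 51, 1 and 0, and B0416.4 with 1, 11 and 30. In the right segment, beside R09A8.1 and R09A8.2, F40E10.5 had 0, 2 and 126 counts. F20B6.1 and R09A8.2 were the exceptions, with more than 10 counts in all 3 mutant libraries and no more than 28 in any. Against the floor of 3 counts over the wild-type group, F20B6.1 was at least 21-fold higher and F40E10.5 at least 42.1-fold, the second resting on 1 library. F20B6.1 did not pass the test (edgeR adjusted p = 0.0571).

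Of the most abundant members per length, F46H5.3, the highest, had 1608, 1223 and 1028 CPM in the mutant and 1586, 677 and 351 CPM in the wild type, and held 6.01%, 4.82% and 4.22% of the member counts in the mutant and 7.45%, 2.96% and 1.6% in the wild type. Wild-type library 1 stood level with the mutant libraries and libraries 2 and 3 below them, and the difference did not pass the test (0.56 ± 0.44 (SE) on the log2 scale, with an edgeR adjusted p = 0.512). In the middle segment EGAP4.1 followed after F34H10.3, at 184, 109 and 82.4 CPM in the mutant and 144, 227 and 251 CPM in the wild type.

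In the left segment, B0410.3 had 55.6, 65.7 and 68.8 CPM in the mutant and 26.1, 85.3 and 572 CPM in the wild type. A single wild-type library thus set its mean of 63.4 ± 6.86 CPM in the mutant against 228 ± 300 CPM in the wild type (SD, n = 3 each), and without that library the log2 fold change went from -1.85 to 0.20. Its exons overlap those of the planar polarity gene vang-1 on the other strand. C26B9.5 had 273, 204 and 136 CPM in the mutant and 225, 282 and 98.0 CPM in the wild type, and F48D6.4 had 62.4, 84.6 and 85.9 CPM in the mutant and 15.9, 68.0 and 47.1 CPM in the wild type. In both, the groups overlapped.

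In the right segment, F57G12.1 had 530, 566 and 539 CPM in the mutant and 297, 526 and 749 CPM in the wild type, and M163.1 had 369, 208 and 292 CPM in the mutant and 79.7, 346 and 548 CPM in the wild type. Both overlapped between genotypes, with wild-type library 1 the lowest. The deposited length of M163.1 is 1169 bases, against 450 annotated in WBcel235, so its level per length is uncertain. Y15E3A.5 had 323, 182 and 309 CPM in the mutant and 96.9, 141 and 135 CPM in the wild type. These did not overlap, and the 2.18-fold difference did not pass the test (edgeR adjusted p = 0.0684). It was called without a filter, in DESeq2 and in limma on the deposited log2 values, with adjusted p values of 0.0343, 0.0206 and 0.0276.

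Genes that act on the X chromosome as a whole were measured in the same fit. Of 13 genes of dosage compensation and its switch, 12 were tested and 0 were called in edgeR or in DESeq2. Over all tested genes 2.6% were called in edgeR and 8.26% in DESeq2, so with so few genes a count of 0 does not set the list apart. The median log2 fold change of the 12 was -0.15. At an unadjusted edgeR p under 0.05, 0 were higher and 3 lower, against 9.29% and 10.2% of all tested genes. The 3 were sdc-2, capg-1 and set-1. In 1 of the 13 every mutant library lay above every wild-type library and in 1 below, against 14.4% and 12% of all tested genes. The first was dpy-21, the histone H4 lysine 20 demethylase of the complex, with 390, 379 and 434 CPM in the mutant and 350, 281 and 244 CPM in the wild type (edgeR adjusted p = 0.342). The complex recruiter sdc-2 had 50.6, 56.2 and 84.2 CPM in the mutant and 107, 83.6 and 118 CPM in the wild type. The condensin subunit capg-1 had 73.3, 78.0 and 67.4 CPM in the mutant and 114, 114 and 145 CPM in the wild type. The groups overlapped narrowly for sdc-2 and not for capg-1 (edgeR adjusted p = 0.244 and 0.148). The gene set-1 had 69.2, 101 and 135 CPM in the mutant and 104, 243 and 299 CPM in the wild type, with overlap (edgeR adjusted p = 0.149). Of 6 genes tied to silencing of X in the germline, the PRC2-like mes-2, mes-3 and mes-6, the H3K36 methyltransferases mes-4 and met-1, and mrg-1, 1 was called, mrg-1 itself, which fell as the mutated gene (edgeR adjusted p = 0.0413).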

How the data were processed

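RNA was measured in 6 libraries, 3 per genotype. Per the labels' protocols, libraries were made from total RNA with a NuGEN Ovation kit. The authors deposited raw counts per gene with a gene length, and log2 values; checked against the counts, these log2 values deposited by the authors are log2 of the count scaled to 24838462 per library, plus 8. The submitters' processing notes name the genome build ce10; which aligner, counter and strand setting were used is not stated there. Positions and names came from Ensembl release 115 (WBcel235, another build, looked up by identifier and not converted) and RefSeq symbols by sequence name, found for 1303 of the 1305 members. Of the table, 522 genes had no annotation and were left out of every set. There were 0 unmapped columns.

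The test was the quasi-likelihood F test of edgeR (version 4.0.16, under R 4.3.3) after filterByExpr, which left 13460 genes, with TMM scaling and Benjamini-Hochberg adjustment at 0.05; it was tested on simulated data. The SE is the absolute log2 fold change divided by the root of F. CPM are TMM-scaled. A floor of 3 counts over a group bounds folds against 0 counts and covers counting error only. Medians over gene sets carry no test. Alternatives used DESeq2 1.42.0, limma 3.58.1 on the deposited log2 values, other scalings and filters, a replicate block and each library left out. The fits against wild-type library 1 alone and by Ensembl names alone were chosen after seeing the data. No library pair agreed within sampling noise (chi-square per gene 73.1 or more).

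Named are all called members (up to 24), mrg-1, and any gene that a count of 5 or fewer refers to. Also named in each segment are the 3 most abundant per length, and the 3 with the most mutant counts and no wild-type count. Neighbours and overlapping genes, and dpy-21, sdc-2, capg-1 and set-1, were chosen after their values were seen. The members, lists and tests were chosen with earlier results of these data known. Figures were drawn with matplotlib 3.10.9. No sequences are shown.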

Additional observations from a re-analysis of the deposited data

How the results depend on the processing

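The member median lay above the autosomal sequence-name median in every fit run. The difference of 0.30 ran from 0.25 to 0.34 with 1 library left out. It was 0.20 without a filter, 0.21 in DESeq2 and 0.22 against wild-type library 1 alone. The member median itself, 0.26, ran from 0.28 to 0.37 with 1 library left out. It was 0.55 with library totals, 0.46 without a filter, 0.21 with a CPM filter, 0.40 with the replicate block, 0.58 against wild-type library 1 alone, 0.47 in DESeq2 and 0.64 in limma on the deposited log2 values. Against X-linked gene-class genes the difference of 0.02 ran from -0.03 to 0.11 with 1 library left out. It was 0.17 without a filter, 0.18 in DESeq2 and 0.34 against wild-type library 1 alone. The right minus the left segment, 0.08, ran from 0.05 to 0.15, and was 0.23 without a filter, 0.23 in DESeq2 and 0.23 against wild-type library 1 alone. The middle minus the outer segments, 0.02, had no stable sign and ran from -0.0765 to 0.00152 with 1 library left out. It was -0.07 and -0.05 without wild-type library 2 and 3, and -0.08 and -0.00097 without mutant library 1 and 2. It was also -0.05 without a filter, -0.05 with a CPM filter, -0.05 in DESeq2 and -0.01 in limma.

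The 13 members higher became 8 with library totals, 29 without a filter, 61 in DESeq2 and 28 in limma on the deposited values, and 1 to 32 with 1 library left out. Calls over all genes moved alike: the share of tested members higher was 0.979%, 2.39%, 5.07% and 3.43% in those 4 fits, against 1.52%, 2.32%, 4.56% and 3.57% of all genes tested. The 2 lower became 0 with library totals, 7 without a filter, 18 in DESeq2 and 0 in limma, and 0 to 15 with 1 library left out. Lower calls over all genes also moved. In those 4 fits 0%, 0.577%, 1.4975% and 0% of tested members were lower. The shares of all genes tested were 0.0817%, 1.605%, 3.706% and 0.253%, so few genes of any set were lower with library totals or in limma. The 15 without wild-type library 1 were 1.693% of tested members, against 3.398% of all genes tested. Whether the replicate numbers pair the libraries was not settled. Deviations of same-numbered libraries correlated at 0.00, 0.04 and 0.09, and those of differently numbered libraries at -0.08 to 0.05. Correlations this low cannot exclude a shared batch. With the replicate block 16 members were higher and 3 lower, against 2.15% and 1.05% of all genes; 13 of the 15 calls were kept, and K08B5.1 (adjusted p = 0.0558 in edgeR) and T09B9.3 (0.0657) were lost.

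Without wild-type library 1, B0410.3 (-2.37) and F46H5.3 (1.32) were called, and DESeq2 also called F20B6.1 and R09A8.2. Against wild-type library 1 alone, the log2 fold change of F48D6.4 went from 0.83 to 2.30. Among members not called in the main fit, the direction turned as follows. B0410.3 (-2.37 to 0.20 with 1 library left out) went to 0.20 without wild-type library 3 and 1.30 against wild-type library 1 alone. C26B9.5 (-0.29 to 0.33) went to -0.0028 without mitochondrial genes, -0.29 without wild-type library 3, -0.24 without mutant library 1 and -0.12 against wild-type library 1 alone. F46H5.3 went to -0.28 against wild-type library 1 alone. M163.1 (-0.62 to 0.46) went to 0.28 with library totals, 0.11 with the replicate block, 0.46 without wild-type library 3, 0.04 without mutant library 2, 1.88 against wild-type library 1 alone and 0.51 in limma. F57G12.1 (-0.23 to 0.42) went to -0.23 without wild-type library 1. The cause was not tested.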
